A study of Mus musculus with 6 samples.

Results

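Midn, which encodes midnolin, and 9 immediate early transcription factors of the EGR, FOS, JUN and IER groups were followed in Hepa1-6 cells, an established mouse hepatoma line. They were chosen by name (Midn, Egr1, Egr2, Ier2, Fos, Fosb, Fosl1, Fosl2, Jun and Junb), and all 10 were present among the 25078 genes of the expression tables. RNA-seq after ribosomal RNA depletion had been run on 6 libraries. 1 library came from untreated parental cells (wt), 2 from cells transduced with a lentiviral scramble vector (scr 25-2 and scr 50-1) and 3 from cells transduced with a lentiviral midnolin shRNA vector (knockdown 25-3, 50-2 and 50-5). Transduced cells of both kinds were selected with puromycin and parental cells were not, and all were grown in medium with fetal bovine serum. Stable knockdown lines had been grown from single cells by limiting dilution, so that the effect of the shRNA and the traits of a clone cannot be told apart. The labels do not name the clones, do not explain the numbers 25 and 50 and do not say whether libraries of a group came from separate clones or cultures, so the p-values below measure the spread between these libraries only. The study describes the sequenced cells as knockdown clones sh1 and sh2 and a scramble control clone. Which libraries these are is not given, so the 3 knockdown and the 2 scr libraries may stand for fewer clones than libraries.

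Immediate early genes are switched on within minutes of a growth signal by factors that are already in the cell, such as serum response factor and CREB, and their RNAs and proteins are short-lived. FOS and JUN proteins pair through leucine zippers to form the AP-1 transcription factor, EGR proteins bind GC-rich DNA through zinc fingers, and IER2 is a small nuclear protein of the same rapid response. Midnolin is a nuclear protein with a ubiquitin-like domain that has been reported to bring several immediate early proteins to the proteasome without ubiquitin. RNA-seq measures their RNA and not their protein.

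Gene-level totals ran from 25586301 to 33119710 reads. The hepatoma label was checked with 6 hepatocyte and hepatoma markers, of which at least 5 had an RPKM over 1 in every library. Their summed RPKM was 2677 and 3998 in the scr libraries 25-2 and 50-1 and 1545, 1559 and 795 in knockdown 25-3, 50-2 and 50-5. Most of this sum in scr cells was albumin (Alb), the main hepatocyte product, whose RPKM was 1877 and 2805 there against 336, 62.7 and 20.9 in the knockdown libraries (FDR 0.0712, edgeR quasi-likelihood test). The markers did not move together, since the fitted log2 fold change was -4.08 for Alb and -2.10 for the fetal liver protein Afp but 0.67 and 0.87 for the keratins Krt8 and Krt18 and 1.23 for the hepatocyte transcription factor Hnf4a, and none of these 5 was called by edgeR, with 3 at an unadjusted p under 0.05 (beside 31.5% of all genes tested) and a median log2 fold change of 0.67. Hnf4a had an RPKM of 33.9 and 11.04 in the scr libraries against 65.5, 65.4 and 29.6 in the knockdown libraries. The part of these differences in the results below was not tested. The 8 markers of leukocytes, macrophages, endothelium, fibroblasts, stellate cells and bile duct cells were near 0, with 1 to 5 of them at 0 counts and a summed RPKM of at most 0.827 in scr and knockdown libraries and 2.95 in wt, where Pecam1 alone passed 1. Knockdown was compared with scr over the 11577 genes whose RPKM exceeded 1 in any of the 5 libraries. At an FDR under 0.05 and a fold change of at least 1.5, 1230 genes were called, which is 10.6% of those tested, and 3641 (31.5%) had an unadjusted p under 0.05. Without a knockdown library the calls dropped over all genes, to 2.24% of those tested without knockdown 25-3, 1.14% without 50-2 and 3.01% without 50-5, and they were 19.9% without scr 25-2 and 11.3% without scr 50-1. The median log2 fold change of all genes was -0.0097. In bulk RNA, fewer cells of a kind and less RNA per cell cannot be told apart.

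Of the 10 genes, Midn was lower in knockdown cells, and the FOS relatives Fosl1 and Fosl2 were higher. The remaining 6 genes tested were not called, and Egr2 was too low to enter the test. Thus 3 of 9 tested members were called, 2 of them upward (background 5.40% of all genes) and 1 downward (background 5.23%), and the downward one was the shRNA target itself. By the RPKM values, all 3 knockdown libraries lay above both scr libraries for Fosl1, Fosl2 and Junb, and below both for Midn and Jun. Such separation was found upward in 25.7% and downward in 24.5% of all genes tested, so that it says little about a gene on its own.

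**Figure D1:**
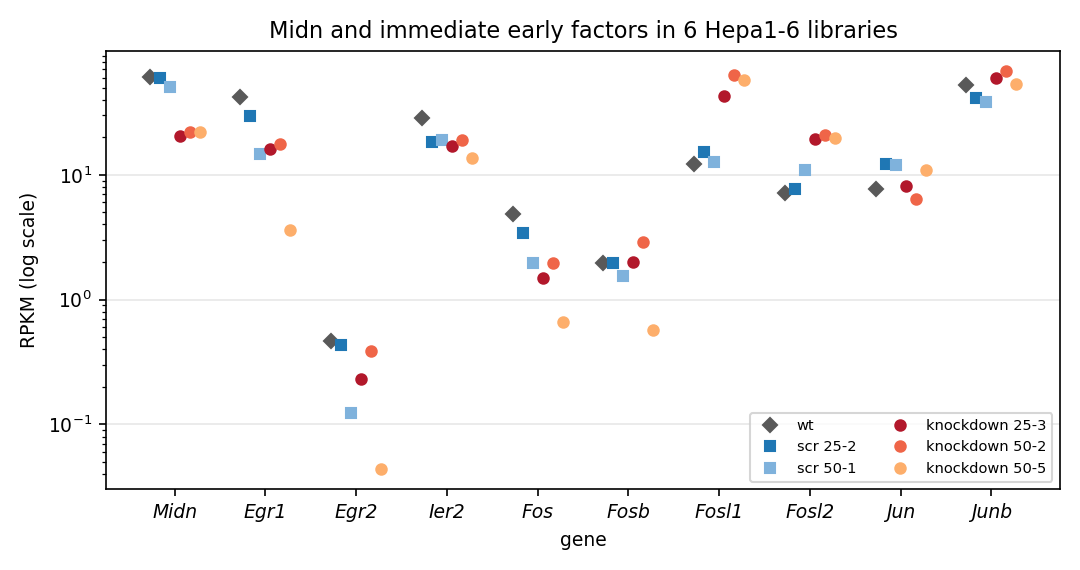
RPKM of the 10 genes in each of the 6 libraries, on a log axis, with wt as a diamond, scr libraries as squares and knockdown libraries as circles. Midn separates downward and Fosl1 and Fosl2 upward, while for Egr1, Egr2, Fos and Fosb the lowest circle, knockdown 50-5, stands apart from the other knockdown libraries.

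Midn (chromosome 10 of mm10, 80148272 to 80158368, plus strand) was the most abundant of the 10 genes per length in scr cells. Its RPKM was 60.5 in wt, 59.6 and 50.8 in the scr libraries 25-2 and 50-1, and 20.3, 21.8 and 22.1 in knockdown 25-3, 50-2 and 50-5. Hence the knockdown libraries kept 36.7%, 39.6% and 40.04% of the scr mean, and the groups did not overlap. Its log2 fold change was -1.38 (standard error 0.133, 95% interval -1.71 to -1.05, FDR 0.00777 after Benjamini-Hochberg adjustment over all genes tested, edgeR quasi-likelihood test). The libraries were close to one another in their Midn level, since the highest knockdown library exceeded the lowest by 1.09-fold and the scr libraries differed by 1.17-fold. Without knockdown 50-2 the fold change was the same (-1.38) but the FDR was 0.0525.

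The FOS family held both called factors. Fosl1, which encodes FRA1, had an RPKM of 12.1 in wt, 15.1 and 12.6 in the scr libraries, and 42.9, 63.4 and 57.1 in knockdown 25-3, 50-2 and 50-5. It rose to 3.94 times the scr mean (393.5%), or 1.96 on the log2 scale (standard error 0.221, 95% interval 1.42 to 2.51, FDR 0.0101, edgeR quasi-likelihood test). The parental library sat at the level of the scr libraries. Fosl1 (chromosome 19, 5447698 to 5455938, plus strand) shares 2776 bases of its span with Ccdc85b on the minus strand, and no source says whether counting used the strand, so that reads in the shared stretch have an uncertain origin. Ccdc85b itself was not called (log2 fold change 0.14, 95% interval -0.34 to 0.62, FDR 0.655, edgeR quasi-likelihood test). Without knockdown 50-2, the log2 fold change of Fosl1 was 1.85 and its FDR 0.0509.

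Fosl2, which encodes FRA2, had an RPKM of 7.14 in wt, 7.71 and 10.99 in the scr libraries, and 19.5, 20.9 and 19.5 in the knockdown libraries in the same order. All 3 knockdown values were nearly equal, and each exceeded the higher scr value. The log2 fold change was 1.08 (standard error 0.182, 95% interval 0.63 to 1.54, FDR 0.0239, edgeR quasi-likelihood test). The call needed all 3 knockdown libraries, since the FDR was 0.0863, 0.103 and 0.0785 without knockdown 25-3, 50-2 and 50-5, with log2 fold changes of 1.10, 1.06 and 1.10.

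Fos and Fosb, the members of the family that are known for a sharp response to serum, were not called. Fos had an RPKM of 4.89 in wt, 3.42 and 1.96 in the scr libraries 25-2 and 50-1, and 1.501, 1.98 and 0.659 in knockdown 25-3, 50-2 and 50-5. The groups met, with knockdown 50-2 beside scr 50-1, and the log2 fold change was -0.98 with a 95% interval of -2.25 to 0.29 (FDR 0.253, edgeR quasi-likelihood test). It ranged from -1.32 to -0.51 with 1 library left out, with -0.51 without scr 25-2 and -0.65 without knockdown 50-5. For Fosb the RPKM was 1.95 in wt, 1.96 and 1.54 in the scr libraries, and 2.02, 2.89 and 0.576 in the knockdown libraries, which lay on both sides of the controls. Its log2 fold change of 0.04 had a 95% interval of -1.53 to 1.61, and its sign turned with the library left out. Fos was counted by 46 to 269 reads per library and Fosb by 72 to 353, against 538 to 3491 for Fosl1.

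**Figure D2:**
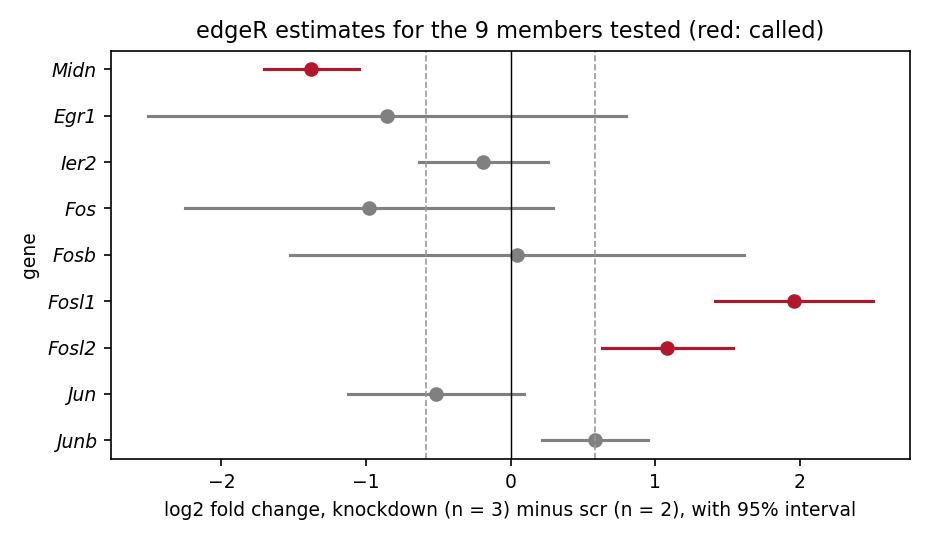
Log2 fold change (knockdown minus scr, edgeR) of the 9 members tested, with points for estimates, lines for 95% intervals and dashed lines at a fold change of 1.5 in either direction. The intervals of Midn, Fosl1 and Fosl2 lie wholly beyond the dashed lines, and those of Egr1, Fos and Fosb are the widest.

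Because RPKM is scaled to length, the make-up of each family could be compared between libraries. The summed RPKM of Fos, Fosb, Fosl1 and Fosl2 was 27.6 ± 0.785 (SD, n = 2) in scr and 77.7 ± 11.6 (SD, n = 3) in knockdown cells, which is 2.81 times as much, and it was 26.1 in wt. Fosl1 made up 53.6% and 46.5% of this sum in the scr libraries, 46.4% in wt, and 65.1%, 71.1% and 73.3% in knockdown 25-3, 50-2 and 50-5. The difference of 19.8 percentage points separated the groups, and its p of 0.1 in the exact two-sided permutation test is the smallest that 3 against 2 libraries allow. The share of Fos was 12.1% and 7.25% in scr, 18.8% in wt, and 2.28%, 2.22% and 0.846% in the knockdown libraries, and that of Fosb was 6.96% and 5.70% in scr against 3.07%, 3.24% and 0.740%. These shares did not overlap between the groups either, but each has the family sum as its divisor, which was larger in knockdown cells. The mean RPKM of Fosb itself was 1.75 in scr and 1.83 in knockdown cells, and that of Fos was 2.69 and 1.38. Although Fosl2 rose, its share overlapped between the groups, at 33.97% ± 9.37 (SD, n = 2) in scr and 26.0% ± 3.16 (SD, n = 3) in knockdown cells (exact permutation p = 0.3).

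None of the JUN genes, whose proteins pair with the FOS proteins, was called by edgeR. Junb was the most abundant member in knockdown cells by mean RPKM, although Fosl1 was higher in knockdown 50-5. The RPKM of Junb was 52.7 in wt, 41.6 and 38.4 in the scr libraries, and 59.2, 68.2 and 53.9 in knockdown 25-3, 50-2 and 50-5. The groups did not overlap, but neither limit was met, since the log2 fold change was 0.58 (standard error 0.148, 95% interval 0.22 to 0.95, FDR 0.0611, edgeR quasi-likelihood test). DESeq2 called it, at a log2 fold change of 0.59 and an adjusted p of 0.00474. The wt library was 1.27 times the higher of them and close to the lowest knockdown library.

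Jun, the founding member of its family, had an RPKM of 7.69 in wt, 12.2 and 12.0 in the scr libraries, and 8.15, 6.42 and 10.95 in knockdown 25-3, 50-2 and 50-5. The scr libraries differed by only 1.02-fold, while the knockdown libraries spanned 1.71-fold and wt lay among them. The log2 fold change was -0.52 with a 95% interval of -1.12 to 0.09 (FDR 0.212, edgeR quasi-likelihood test). It was -0.34 without knockdown 50-2 and -0.75 without knockdown 50-5. Jund, the JUN gene that is least inducible, was not called either (log2 fold change 0.16, FDR 0.666, edgeR quasi-likelihood test). The share of Jun in the summed RPKM of Jun, Junb and Jund was 15.3% ± 1.32 (SD, n = 2) in scr and 8.54% ± 2.20 (SD, n = 3) in knockdown cells, with the groups separated (exact permutation p = 0.1), and 9.05% in wt, inside the knockdown range. The sum itself was 79.2 ± 7.83 (SD, n = 2) in scr and 99.6 ± 4.97 (SD, n = 3) in knockdown cells. It was 85.0 in wt, and the knockdown and scr sums did not overlap (exact permutation p = 0.1). Each share has this sum as its divisor. Junb made up 50.6% ± 2.19 of it in scr, 60.7% ± 7.42 in knockdown cells and 62.0% in wt (exact permutation p = 0.2).

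**Figure D3:**
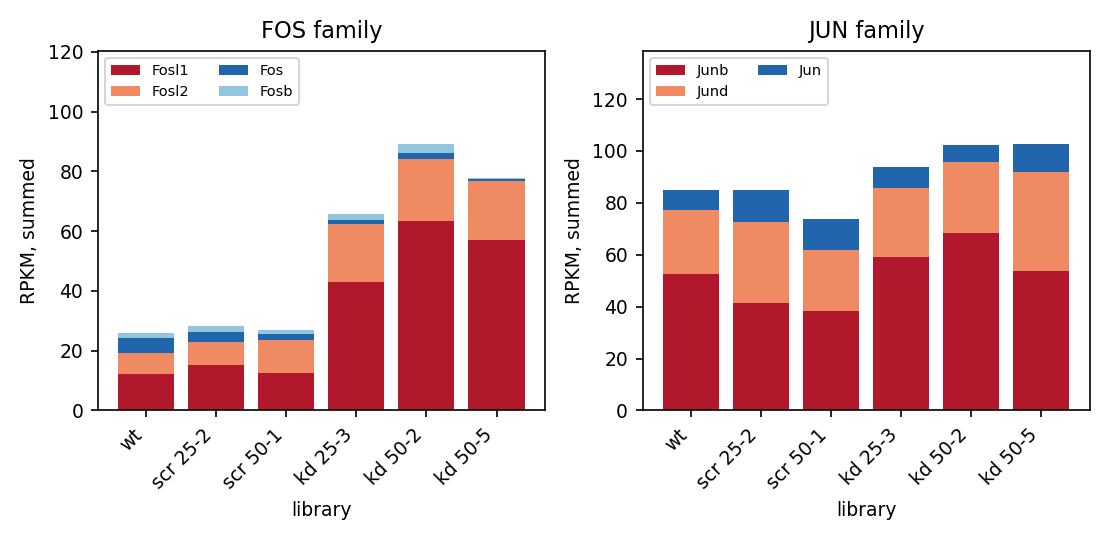
Summed RPKM of the FOS family (left) and the JUN family (right) in each library, stacked by gene, with knockdown shortened to kd. The FOS sum lies between 65.9 and 89.2 in knockdown and between 26.1 and 28.2 in the other libraries, mostly through Fosl1. The JUN sum lies between 93.9 and 102.7 in knockdown and between 73.7 and 85.0 in the other libraries.

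Among the EGR genes, Egr1 was the main one, making up 98.8% of the family's summed RPKM in scr and 98.4% in knockdown cells. Egr1 (chromosome 18, 34861207 to 34864956) had an RPKM of 41.8 in wt, 29.8 and 14.6 in the scr libraries 25-2 and 50-1, and 15.96, 17.7 and 3.62 in knockdown 25-3, 50-2 and 50-5. The knockdown libraries 25-3 and 50-2 lay between the scr libraries, and only knockdown 50-5 lay below them, at 16.3% of the scr mean. The log2 fold change of -0.86 carried a 95% interval of -2.51 to 0.80 (FDR 0.424, edgeR quasi-likelihood test). It was -0.23 without scr 25-2, -1.28 without scr 50-1, -1.08 without knockdown 25-3, -1.19 without knockdown 50-2 and -0.42 without knockdown 50-5. Egr2, a close relative, was counted by 42 reads in wt, 44 and 12 in scr, and 25, 43 and 5 in the knockdown libraries, an RPKM under 0.5 throughout. With no filter on low values its log2 fold change was -0.36 (95% interval -2.45 to 1.74, FDR 0.830, edgeR quasi-likelihood test). Egr3 was listed at 0 in every library and Egr4 had 2 reads in scr 25-2 alone.

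Ier2 had an RPKM of 28.3 in wt, 18.3 and 19.0 in the scr libraries, and 17.0, 19.1 and 13.6 in knockdown 25-3, 50-2 and 50-5. Knockdown and scr overlapped, and the log2 fold change of -0.19 had a 95% interval of -0.63 to 0.26 (FDR 0.511, edgeR quasi-likelihood test). It was -0.29 without knockdown 50-2 and -0.07 without knockdown 50-5. Ier2 and Junb lie 314 kb apart on chromosome 8, and the spans of Jun, Junb and Ier2 hold no intron in the annotation used for counting.

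The 10 genes thus differed in how evenly they were expressed within a group. The range of log2(RPKM + 0.1) over the 3 knockdown libraries was 2.26 for Egr1, 2.15 for Fosb and 1.46 for Fos, larger than in 98.2%, 98.0% and 95.7% of all genes tested. The same range was 0.12 for Midn and 0.10 for Fosl2, larger than in only 12.1% and 9.18% of genes. The median over all genes was 0.32, for the 3 knockdown as for the 2 scr libraries. Between the scr libraries, Egr1 differed by 1.02 and Fos by 0.77, more than 87.7% and 80.4% of genes, and both were higher in scr 25-2. Knockdown 50-5 had the lowest value of all 6 libraries for Egr1, Egr2, Ier2, Fos and Fosb, 5 of the 10 genes. Of the 9 genes tested 4 were lowest there, against 16.9% of all genes. Of the 5 hepatocyte markers tested, 2 (Alb and Afp) were lowest in that library.

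**Figure D4:**
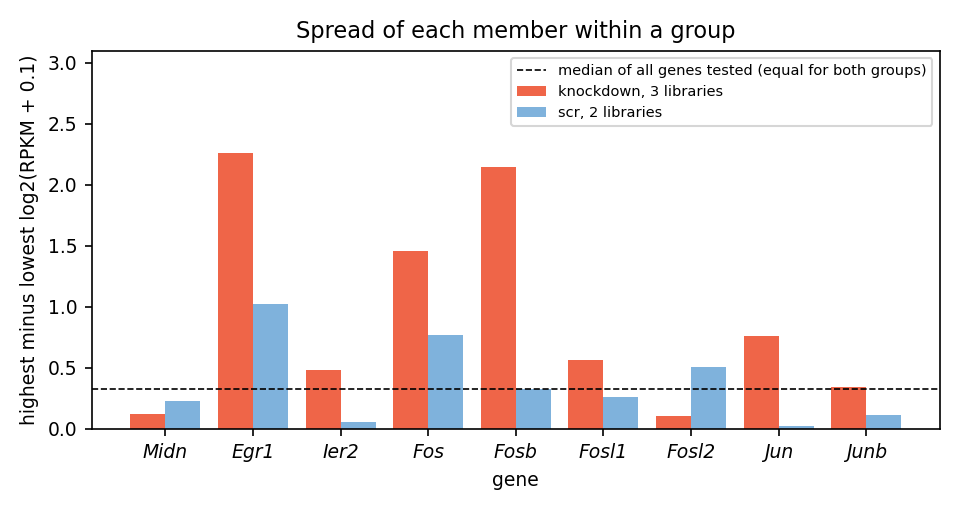
Highest minus lowest log2(RPKM + 0.1) within the 3 knockdown libraries (orange) and the 2 scr libraries (blue) for the 9 members tested, with the median of all genes tested, 0.32, as a dashed line. A range over 3 libraries tends to exceed one over 2, and Egr1, Fosb and Fos exceed the line most in knockdown cells.

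In the order of levels per length, scr cells had Midn first, with a mean RPKM of 55.2, followed by Junb (39.99), Egr1 (22.2), Ier2 (18.7), Fosl1 (13.8), Jun (12.1), Fosl2 (9.35), Fos (2.69), Fosb (1.75) and Egr2 (0.279). Only Egr1 and Ier2 overlapped as neighbours in this order. In knockdown cells Junb (60.4) and Fosl1 (54.5) came first and overlapped, and Midn (21.4) and Fosl2 (19.99) came next and overlapped as well. They were followed by Ier2 (16.6), Egr1 (12.4), Jun (8.51), Fosb (1.83), Fos (1.38) and Egr2 (0.221), where Ier2 overlapped Egr1, Egr1 overlapped Jun and Fosb overlapped Fos.

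Parental cells, of which there was 1 library and hence no test, had the highest value of the 6 libraries for Midn, Egr1, Egr2, Fos and Ier2 and the lowest for Fosl1 and Fosl2. Against the higher scr library, wt was 1.40-fold for Egr1, 1.43-fold for Fos and 1.49-fold for Ier2, while Midn was 1.02-fold. Of the 9 genes tested 4 were highest in wt, against 17.4% of all genes. When wt was added to the controls, Midn, Fosl1 and Fosl2 stayed called, with log2 fold changes of -1.41, 2.03 and 1.21, and no other member was.

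Promoters were read for the members with a window in the RefSeq table of the build GRCm38.p6 (250 bases before to 50 after a transcript start), which were 7 of 10. Egr1, Fosl1 and Ier2 had none. Each window was searched on both strands for the binding sites of the factors above, namely the CArG box of serum response factor, the CRE TGACGTCA, the AP-1 site TGACTCA, whose reverse strand reads TGAGTCA, and the EGR sites GCGTGGGCG and GCGGGGGCG. The CRE core TGACG, whose reverse strand reads CGTCA and which lies within the CRE, was added after the windows had been read. Of all 32851 windows, 1.63% held a CArG box, 1.79% a CRE, 5.20% an AP-1 site, 0.612% and 2.91% the respective EGR sites, and 20.8% the common CRE core. GCGGGGGCG was found in Fosl2 (bases 79 to 71 before the start) and Fosb (50 to 42 before it), and a CArG box in Egr2, at 4 of its 5 listed starts. No window of Midn, Fos, Jun or Junb held a motif other than the CRE core, and none held a CRE or an AP-1 site. The sequences next to the starts are shown for both called members that have a window and for Fosb, Junb and Fos. For Egr2, 30 bases around a CArG box are shown, which end within a CRE core left in small letters. All read 5′ to 3′ on the strand of the gene. The other matches are in capitals (the CArG box in Egr2, the EGR site in Fosl2, and the CRE core or EGR site in the others). A match is a run of letters and not a measured site.
Midn, chr10:80148152-80148271, plus strand: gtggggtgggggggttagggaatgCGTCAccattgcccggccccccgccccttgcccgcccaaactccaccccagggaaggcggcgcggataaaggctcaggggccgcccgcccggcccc
Fosl2, chr5:32136352-32136471, plus strand: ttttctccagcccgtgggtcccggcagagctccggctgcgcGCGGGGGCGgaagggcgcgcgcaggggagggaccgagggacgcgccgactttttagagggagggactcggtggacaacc
Fosb, chr7:19310046-19310165, minus strand: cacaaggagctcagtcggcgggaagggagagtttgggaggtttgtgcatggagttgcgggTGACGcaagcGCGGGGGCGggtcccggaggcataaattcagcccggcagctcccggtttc
Junb, chr8:84978749-84978868, minus strand: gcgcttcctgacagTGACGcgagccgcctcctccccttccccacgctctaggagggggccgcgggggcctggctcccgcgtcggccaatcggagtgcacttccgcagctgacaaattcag
Fos, chr12:85473750-85473889, plus strand: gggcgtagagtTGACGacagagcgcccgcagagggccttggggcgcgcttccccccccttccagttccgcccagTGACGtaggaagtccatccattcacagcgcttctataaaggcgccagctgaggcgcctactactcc
Egr2, chr10:67537787-67537816, plus strand: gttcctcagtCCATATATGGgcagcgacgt

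The 5 genes whose profile over the 6 libraries was most like that of Midn, among 8183 others with a mean RPKM of at least 5, were N6amt1, Cbr4, Ralgps2, D430020J02Rik and C1ra. The measure was the root mean square difference of log2(RPKM + 0.1) after centring each gene, which ran from 0.104 for N6amt1 to 0.139 for C1ra. N6amt1, a methyltransferase, had an RPKM of 16.3 in wt, 15.4 and 12.8 in the scr libraries, and 5.96, 6.15 and 6.77 in knockdown 25-3, 50-2 and 50-5. Cbr4, a carbonyl reductase, had 34.7, then 33.2 and 27.7, then 9.28, 11.6 and 10.4. They were chosen for this pattern, so no test is given.

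Around the members, 5 lists of genes of the same response were described, with the background of 10.6% called among all genes. Of the other immediate early transcription factors, 4 of 15 tested were called, with a median log2 fold change of 0.04. The orphan nuclear receptors Nr4a2 and Nr4a1 rose, by a log2 fold change of 2.08 and 1.05. The RPKM of Nr4a2 was 1.16 and 0.891 in the scr libraries against 5.03, 4.11 and 4.02 in knockdown cells. Klf2, a zinc finger factor, and Per1, a circadian clock gene, fell by 3.099 and 1.26 on the log2 scale. Myc, the growth regulator, was not called, at an RPKM of 76.96 and 88.0 in scr and 118, 103 and 80.9 in knockdown cells. Without any 1 of the knockdown libraries, 1 gene of the list was called, in fits that called 1.14% to 3.01% of all genes.

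Of 20 tested immediate early effectors and feedback regulators, 6 were called, with a median log2 fold change of 0.03. Dusp2, a nuclear MAP kinase phosphatase, Sik1, a kinase, and Trib1, a pseudokinase, rose by log2 fold changes of 3.803, 2.30 and 1.44. Zfp36, which destabilizes RNAs with AU-rich elements, Btg2, an antiproliferative gene, and Spry4, an inhibitor of receptor signaling, fell by 1.42, 1.12 and 0.92 on the log2 scale. Zfp36 had an RPKM of 13.9 and 18.2 in scr, 8.17 in wt and 6.31, 6.33 and 5.50 in knockdown cells. DESeq2 called 10 of them, in a fit that called 20.1% of all genes, and edgeR called 9 without scr 25-2 and 9 with wt as a control, beside 19.9% and 14.1% of all genes. Without a knockdown library, between 0 and 2 were called, beside 1.14% to 3.01% of all genes.

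Among the AP-1 partners and the upstream proteins, the shares called were below the background of 10.6%, a difference that was not tested. None of the 13 tested bZIP partners, among them Jund, Atf2, Atf3 and Atf4, was called by edgeR, with 2 at an unadjusted p under 0.05 (beside 31.5% of all genes) and a median log2 fold change of -0.25. DESeq2 called 1 (beside 20.1% of all genes) and limma 0. With edgeR, 2 were called without scr 25-2, 1 without scr 50-1 and 1 with wt as a control, beside 19.9%, 11.3% and 14.1% of all genes. Of 19 kinases and SRF, TCF and CREB factors, 5 had an unadjusted p under 0.05 (beside 31.5% of all genes). Of these, 1 was called, which is 5.26% of the list. This was Braf, the kinase of the RAF family, with an RPKM of 5.38 and 5.20 in scr and 9.37, 8.64 and 7.52 in knockdown cells (log2 fold change 0.67, FDR 0.0409, edgeR quasi-likelihood test), and it was not called in either limma fit, without scr 50-1 or without any 1 of the knockdown libraries. Without scr 25-2, 3 genes of this list were called, in a fit that called 19.9% of all genes. Srf, Elk1, Elk4 and Mapk3 were not called.

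Genes known as targets of AP-1 were called most often among these lists, 6 of 13 tested (46.2%), with a median log2 fold change of 0.77. The collagenase gene Mmp13 rose from an RPKM of 22.2 and 13.0 in scr to 274.9, 373 and 273 in knockdown cells, which is 4.11 on the log2 scale (standard error 0.331 and FDR 0.00602 by the edgeR quasi-likelihood test), and was 27.0 in wt. Mmp10, a stromelysin, had 2.57 and 0.688 in the scr libraries against 17.3, 14.6 and 47.4, a log2 fold change of 4.01. In contrast Mmp3, another stromelysin, fell from 13.4 and 6.396 to 0.299, 0.464 and 0.168, a log2 fold change of -5.003, although Mmp13, Mmp3 and Mmp10 lie within 238 kb on chromosome 9. Cd44 and Tgfb1, which were named after their values had been seen, were called as well (log2 fold changes of 1.19 and 1.18). Ccnd1, Plaur and Hbegf of the same list were not called. Without knockdown 25-3, 50-2 and 50-5 in turn, 3, 2 and 3 genes of the list were called, beside 2.24%, 1.14% and 3.01% of all genes.

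**Figure D5:**
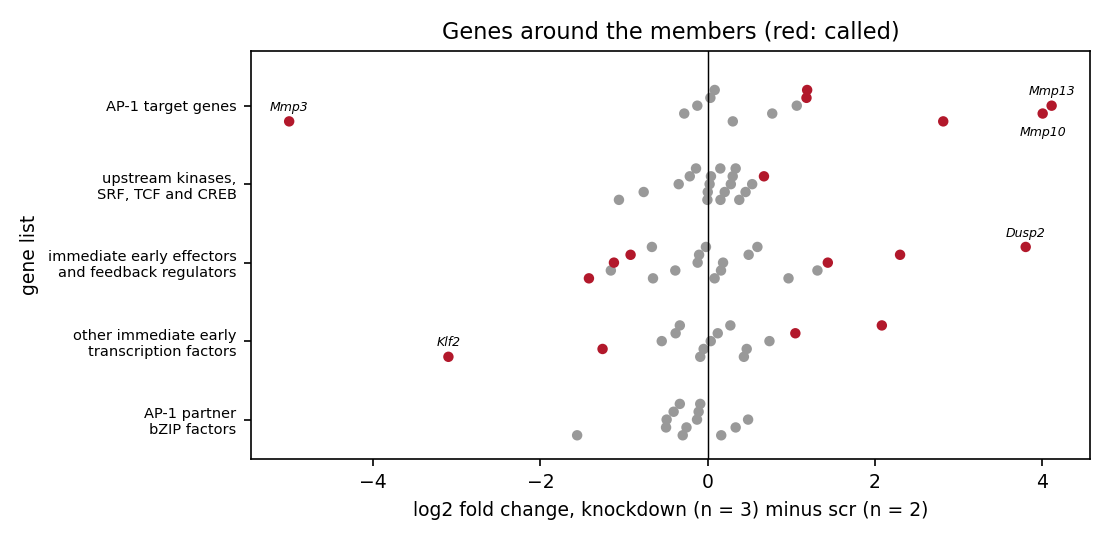
Log2 fold change (knockdown minus scr, edgeR) of each tested gene in the 5 lists around the members, with called genes in red and genes called beyond a log2 fold change of 3 in either direction named. The AP-1 target list has 5 called genes on the right and Mmp3 on the far left, and the bZIP partner list has none.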

How the data were processed

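Single reads had been aligned by the authors to mm10 (Tophat2), and HTSeq had assigned them to RefSeq genes of GRCm38 (version 0.6.1p1 per the submitters' processing notes, while the methods name another), and the deposited counts are raw. The authors also deposited RPKM values, made with TMM-scaled library sizes from edgeR and the summed exon length. The strand setting is not stated. Library columns were matched to samples by title, with 0 left over. Groups follow the labels, so that all 3 knockdown libraries were used, and wt entered only as values and in an alternative.

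Counts were tested with edgeR 4.0.16 in R 4.3.3 (quasi-likelihood, TMM, Benjamini-Hochberg over all 11577 genes whose RPKM exceeded 1 in any of 5 libraries), and called at an FDR under 0.05 and a fitted fold change of at least 1.5, limits taken from the study's methods. Standard errors were derived from the fold change and the F statistic. Family shares were tested with an exact permutation test. The test was tested on simulated counts, and with so few libraries a gene that was not called is not shown to be unchanged. Alternatives were DESeq2 1.42.0, limma 3.58.1 on log2(RPKM + 0.1) and log2(RPKM + 1), other size factors, other filters, wt as a control, the 25 or 50 of the titles as a block, and each library left out. Members, lists and tests were chosen with earlier results of these data known. Named genes are the members, Jund, Egr3 and Egr4, up to 3 called genes per list and direction by fold change, the 5 genes most like Midn, and uncalled examples, of which 2 genes are not reported here. The common biological coefficient of variation was 0.272, and counting error weighs most on Egr2, Fos and Fosb, which had the fewest reads. Rn45s, a ribosomal transcript, took 10.1% to 13.1% of counts. Plots used matplotlib 3.10.9.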

Additional observations from a re-analysis of the deposited data

How the results depend on the processing

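Of 126 fold changes of the members under the alternatives, 115 kept their direction and were called or not called as before, which does not mean that their size was kept. The 5 that reversed were all of Fosb, at -0.18 and -0.052 in limma on log2(RPKM + 0.1) and log2(RPKM + 1), -0.11 without scr 50-1, -0.03 without knockdown 25-3 and -0.44 without knockdown 50-2, within a range from -0.44 to 0.47 with 1 library left out. With 1 library left out, the log2 fold change ranged from -1.49 to -1.24 for Midn, from 1.84 to 2.12 for Fosl1 and from 0.87 to 1.36 for Fosl2, and between 0 and 3 members were called. The count of called genes, 1230 (625 higher and 605 lower), ranged then from 131 to 2273 (89 to 1146 higher and 42 to 1127 lower). These fits had fewer libraries, and a lone scr library was assumed to vary like the knockdown libraries. It was 131 without knockdown 50-2, 259 without knockdown 25-3, 346 without knockdown 50-5 and 2273 without scr 25-2. DESeq2 called 2322 genes (1167 higher and 1155 lower), and 2 filters, 2 scalings and both limma fits stayed within 1.5 times the count, as did wt as a control. With the 25 or 50 of the titles as a replicate block, 807 genes were called (388 lower), and the 3 called members remained called, while Braf was not. Deviations from the group means correlated at 0.00961 for the 25 libraries and at -0.0679 and 0.0676 for the 50 libraries. With 2 scr libraries the scr deviations mirror each other, so these values cannot decide whether the titles pair the libraries. The difference in the share of Fos was -5.06 percentage points on counts not divided by length and ranged from -10.3 to -5.47 with 1 library left out, and that in the share of Fosl2 from -14.6 to -1.30. Of 70 counts of called genes in the lists, 22 moved, 16 of them downward. The causes were not tested. The depth limits what can be said of Egr2, at 5 to 44 reads.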

Other observations

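Nab2, a co-repressor of EGR proteins, and Maf, a large MAF factor, were singled out after their values had been seen. Nab2 had an RPKM of 25.9 in wt, 15.7 and 8.52 in scr 25-2 and scr 50-1, and 5.93, 7.13 and 3.42 in knockdown 25-3, 50-2 and 50-5. As with Egr1, the highest value was in wt, the lowest in knockdown 50-5, and scr 25-2 exceeded scr 50-1. It was not called (log2 fold change -1.16, FDR 0.1102, edgeR quasi-likelihood test). Maf had 39.2 in wt, 77.6 and 28.5 in the scr libraries, and 20.03, 17.0 and 17.5 in the knockdown libraries, with an FDR of 0.0625 in the same test. Dusp1, a phosphatase of MAP kinases, had 15.3 and 25.4 in scr against 44.98, 38.4 and 69.3 in knockdown cells, with an FDR of 0.0665 in the same test.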
